A study of Mus musculus with 4 samples.

Results

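Ribosome biogenesis is the building of the small and large ribosomal subunits in the nucleolus. RNA polymerase I (Pol I) transcribes the ribosomal DNA into a long precursor, which small nucleolar ribonucleoproteins (snoRNPs) modify and cut and which processing factors fold and cleave into the mature ribosomal RNAs. The genes followed here were 49 named genes of this pathway, chosen by symbol, out of 47937 gene entries in the count table. These genes, their roles and the other gene lists below were chosen with earlier results of these data known. All 49 had 1 entry each and all 49 passed the filter on low counts, as 16240 genes did in all. They were grouped by role into 3 box C/D snoRNP genes, 5 box H/ACA snoRNP genes, 17 small subunit processing genes, 13 large subunit processing genes, 7 genes of the Pol I machinery and 4 multifunctional nucleolar genes.

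Total RNA, depleted of ribosomal RNA, was sequenced from mouse embryonic fibroblasts (MEF cells), cultured connective tissue cells that come from mouse embryos. The untreated group was wild-type MEF cells without genistein, and the genistein group was MEF cells exposed to 50 µM genistein, a plant isoflavone, for 24 h. Each group had 2 libraries, and all 4 were grown in the same serum-containing medium. Whether a library was a separate culture is not given in the labels, so the p-values measure only the spread between these libraries. The library titles call the untreated group control and name no solvent. The study calls it untreated, a word its methods use for cells given the solvent DMSO alone in other assays.

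Total counts lay between 28591958 and 31464284 per library. The log2 values of replicates correlated at 0.996 and 0.995 within groups and at 0.960 to 0.964 between groups. Collagen, fibronectin and vimentin transcripts were abundant in every library, and summed fibroblast marker counts lay from 427373 to 461924 (10 of 12 listed genes tested, 8 lower and 2 higher), but Thy1 was at 0 in all 4 libraries. Summed markers of other cell types also moved with genistein. The epithelial list went from 1163 and 1130 to 251 and 231, with Epcam and Krt5 at 0 throughout and Krt8, Krt14 and Krt18 lower (3 of 6 listed genes tested). The blood and macrophage list went from 210 and 194 to 561 and 576, with Adgre1 and Hbb-bs at 0 and Csf1r and Cd68 higher (2 of 6 tested). The muscle list went from 37.0 and 31.8 to 286 and 265, with Myod1 at 0 and Des higher (1 of 4 tested). The neural list went from 915 and 860 to 783 and 747, with Sox2 at 0, and the endothelial list from 24.97 and 30.7 to 85.3 and 97.2, with Kdr higher (1 of 4 tested in each). Their part in the results on ribosome biogenesis was not tested. In bulk libraries, fewer cells of a type and less RNA per cell cannot be told apart.

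All 49 genes were lower in genistein-treated MEF cells than in untreated cells. Each passed an adjusted p under 0.05 (edgeR quasi-likelihood fit, Benjamini-Hochberg over 17358 genes and repeats), and 0 were higher. Over all genes and repeats tested, 36.0% were lower and 36.2% were higher by the same rule. Among the 16240 genes alone, 6210 were lower and 5436 were higher. Both genistein libraries lay below both untreated libraries for all 49, against 44.6% of all tested genes. The study's stricter thresholds (also a log2 fold change beyond 1 and a mean normalised count over 100) were passed by 33 of the 49, where 3.92% of all genes and repeats passed them downward. The median log2 fold change was -1.28, which is 41.1% of the untreated level, beside -0.03 for all tested genes. An exact two-sided permutation test of 2 libraries against 2 cannot give a p-value below 0.333, so the fitted test was used throughout.

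Normalised read counts put every library on 1 depth, by dividing its counts by its TMM-scaled total and multiplying by the mean of those totals. Counts are given for untreated 1 and untreated 2 and then for genistein 1 and genistein 2, and a log2 fold change is genistein over untreated with its standard error (SE). Summed over the 49 genes, normalised counts went from 268626 and 260616 to 115835 and 115013. Their share of all gene counts went from 0.993% and 0.973% to 0.460% in both genistein libraries.

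**Figure D1:**
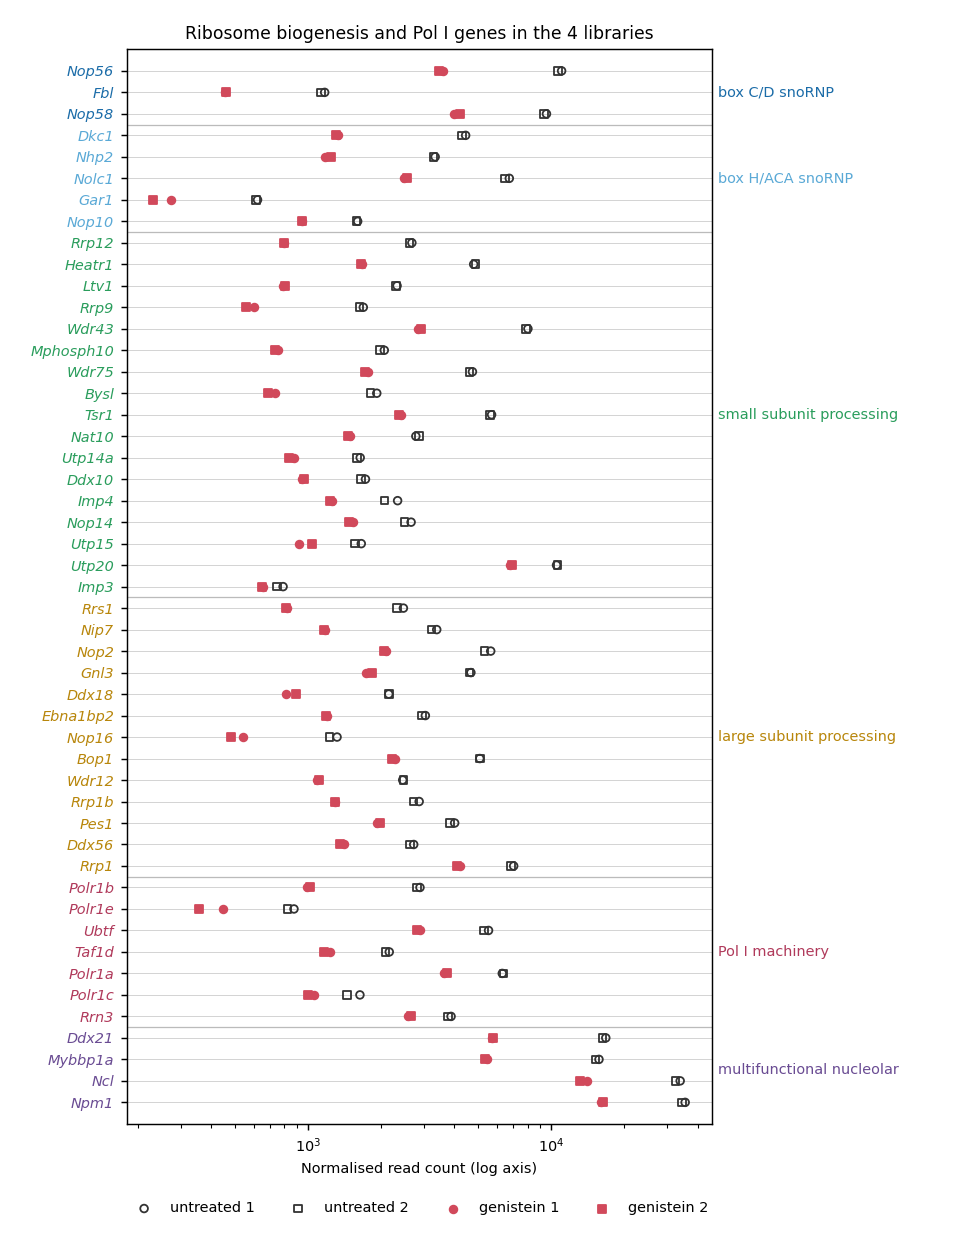
Normalised read counts of the 49 genes in the 4 libraries on a log axis, with open symbols for untreated and filled symbols for genistein libraries, and genes ordered by role and by size of change. The 2 genistein libraries lie left of the 2 untreated libraries for all 49 genes, with the smallest gap at Imp3.

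The box C/D snoRNPs place methyl groups on ribosomal RNA under the guidance of a small RNA. Nop56, 1 of their scaffold proteins, fell from 11039 and 10641 to 3597 and 3473 normalised counts, a log2 fold change of -1.62 ± 0.04. Nop58, the scaffold protein paired with it, fell from 9565 and 9351 to 4004 and 4227 (-1.20 ± 0.04). Fbl, which encodes the methyltransferase fibrillarin, fell from 1173 and 1135 to 457 and 462 (-1.33 ± 0.06). All 3 passed the study's thresholds (adjusted p from 4.88e-15 to 6.77e-12, edgeR) with no overlap between groups. The role's median was -1.33. Nop56 and Nop58 were close in count in untreated cells, with a Nop56 to Nop58 ratio of 1.15 and 1.14, and the ratio was 0.898 and 0.822 in genistein cells.

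Some listed genes share sequence with other entries, so reads may be split between them. Fbl has a processed pseudogene, Gm5812, which fell from 1663 and 1551 to 637 and 658 normalised counts and whose untreated count is 139% of that of Fbl. Fbl and this copy summed gave a log2 ratio of -1.32, near that of Fbl alone. Fbl also shares 690 bp with a transcript of Tulp4 on the opposite strand, and Tulp4 went the other way, from 6662 and 7330.4 to 15195.5 and 14895. The part of these shared stretches in the value of Fbl was not tested, so that value is uncertain. Among processed pseudogenes, copies of Ddx18 (40.7% of its untreated count) and Npm1 (26.1%) were the next largest, and the sums with copies gave -1.34 and -1.10. Pseudogenes of any kind that share sequence were found for 11 genes, and those of the other 8 held at most 5.78% of the gene's untreated count. Stretches of up to 208 bp were also shared with genes that are not pseudogenes, 125 for Wdr12, 24 for Nip7, 23 for Nop58 and 1 for Polr1b, and sums with these were not made.

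The box H/ACA snoRNPs convert uridine to pseudouridine in ribosomal RNA. Dkc1, which encodes their catalytic subunit dyskerin and lies at chrX:75095854-75109777 (GRCm38, plus strand), had the largest fall of the 49 genes. It went from 4451 and 4301 to 1329 and 1306 normalised counts, or 4376 ± 106 to 1317 ± 16.3 (SD, n = 2). That is a log2 fold change of -1.73 ± 0.04 and 30.1% of the untreated level (adjusted p = 1.53e-15, edgeR), and 1.2% of tested genes fell further. Of the other core proteins, Nhp2 fell from 3337 and 3289 to 1172 and 1250.1 (-1.45 ± 0.04) and Gar1 fell from 621 and 612 to 274 and 232 (-1.28 ± 0.08). Gar1 had the lowest counts of the 49 genes and the widest interval among the snoRNP genes, -1.46 to -1.11 at 95%. Nolc1, a nucleolar chaperone that binds these particles, fell from 6729.9 and 6453 to 2489.6 and 2564 (-1.38 ± 0.04).

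Nop10, the smallest core protein, stood apart from its partners. It fell from 1602 and 1585 to 949.9 and 943 normalised counts (-0.75 ± 0.05, 59.4% of untreated), short of the study's fold threshold, and its 95% interval of -0.85 to -0.65 did not overlap that of the other 4 genes of the role. The Dkc1 to Nop10 ratio of counts was 2.78 and 2.71 in untreated cells and 1.40 and 1.38 in genistein cells. The role's median was -1.38, with 4 of 5 past the study's thresholds, and adjusted p ranged from 1.53e-15 to 6.41e-10 (edgeR).

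**Figure D2:**
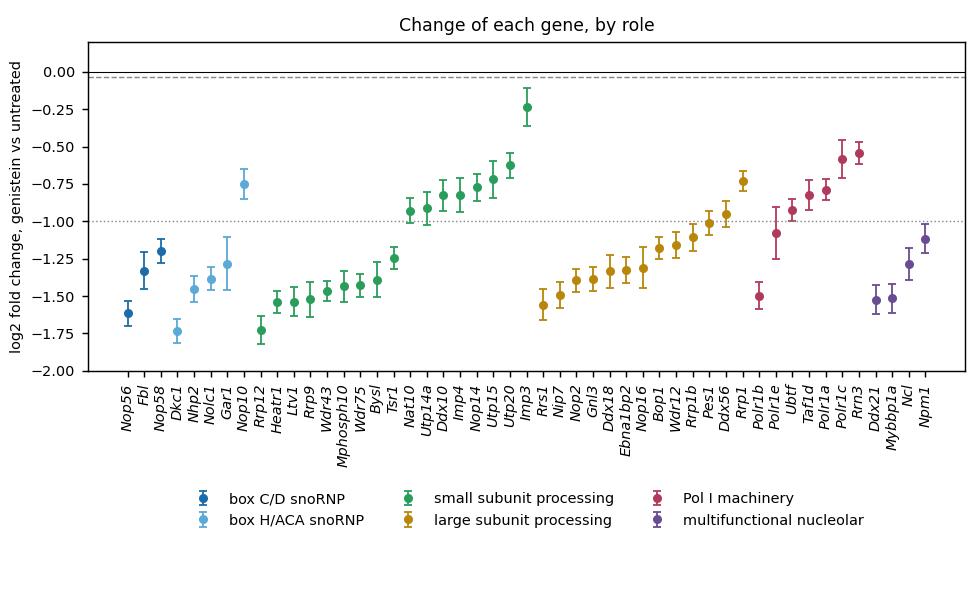
Log2 fold change of each of the 49 genes, coloured by role, with 95% intervals from the edgeR fit, the median of all tested genes (dashed, -0.03) and the study's fold threshold (dotted, -1). All 49 intervals lie below 0, and 5 of the 7 Pol I genes lie above the dotted line.

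Small subunit processing factors assemble on the nascent precursor around the U3 snoRNP and release the small subunit rRNA. All 17 genes of this role fell (median -1.25, adjusted p from 1.45e-15 to 0.00203, edgeR), and 9 passed the study's thresholds. Rrp9, a protein of the U3 snoRNP itself, fell from 1690.2 and 1633 to 598 and 558 normalised counts (-1.52 ± 0.06). Heatr1, a large repeat protein that joins early, fell from 4804 and 4889 to 1677 and 1655 (-1.54 ± 0.04). Wdr43 fell from 8026 and 7879.9 to 2845 and 2917 (-1.47 ± 0.03) and was the most abundant of the role per length. Wdr75, which acts in the same early subcomplex as Wdr43 and Heatr1, fell from 4748 and 4622 to 1769 and 1712 (-1.43 ± 0.04). These 4 genes had overlapping 95% intervals, between -1.64 and -1.35. They were named because they passed the study's thresholds, so this does not describe early factors in general. Utp15 belongs to the same subcomplex as Wdr43, Wdr75 and Heatr1. It did not pass the study's thresholds and fell less (-0.72, 95% interval -0.84 to -0.59), so the genes of this subcomplex did not all fall alike.

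Genes of later steps fell as well. Rrp12, needed for maturation and export of the small subunit, had the largest fall of the role, from 2676 and 2614 to 802 and 796 normalised counts (-1.73 ± 0.04, 30.2% of untreated). Ltv1, a late factor that leaves before the subunit is mature, fell from 2327 and 2296 to 789.5 and 803 (-1.54 ± 0.05). Bysl, which travels with the subunit to the cytoplasm, fell from 1920.0 and 1808 to 733 and 688 (-1.39 ± 0.05). All 3 passed the study's thresholds without overlap between groups. Tsr1, a late GTPase-like factor, fell from 5691 and 5615 to 2406 and 2361 (-1.25 ± 0.03). Tsr1 shares 1240 bp of exon with genes on the opposite strand, Utp14a 473 bp, Bysl 361 bp, Taf1d 235 bp and Imp4 209 bp. The strand option of the counting is not given in the sources used here, so these 5 values are less certain.

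Mphosph10, Imp3 and Imp4 form the Mpp10 complex, which binds the U3 RNA. Mphosph10 fell from 2062 and 1976 to 756 and 736 normalised counts (-1.44 ± 0.05), and Imp4 fell from 2339 and 2063 to 1252 and 1238 (-0.82 ± 0.05). Imp3, at chr9:56937475-56938398 (GRCm38, plus strand), had the smallest change of all 49, from 791 and 745 to 655 and 648 (-0.24 ± 0.06, adjusted p = 0.00203, edgeR). Its genistein level was 84.8% of the untreated level, and 36.8% of tested genes fell further. The Mphosph10 to Imp3 ratio was 2.61 and 2.65 in untreated cells and 1.15 and 1.14 in genistein cells, the largest shift within any of the 5 complexes compared.

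The remaining genes of the role fell by less than the study's fold threshold. Nat10, the acetyltransferase of small subunit rRNA, had a log2 fold change of -0.93, close to the threshold. Utp14a (-0.91), Ddx10 (-0.83), Nop14 (-0.77) and Utp15 (-0.72), which are processome components or helicases, followed. Utp20, with the highest counts of its role, fell from 10521 and 10634 to 6798 and 6903 normalised counts (-0.63 ± 0.04).

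Large subunit processing factors remove the spacers around the large subunit rRNAs. All 13 genes of this role fell (median -1.31, adjusted p from 1.78e-14 to 2.85e-11, edgeR), and 11 passed the study's thresholds. Rrs1, which helps to bring the small ribosomal RNA of the large subunit into the particle, had the largest fall, from 2470.4 and 2328 to 819.6 and 809.8 normalised counts (-1.56 ± 0.05). Nip7 fell from 3386 and 3222 to 1179 and 1168 (-1.49 ± 0.04). Nop2, a methyltransferase of large subunit rRNA, fell from 5644 and 5324 to 2102 and 2065 (-1.40 ± 0.04). These 3 genistein levels were between 34% and 38% of the untreated levels. Gnl3, the nucleolar GTPase nucleostemin, fell from 4679 and 4619 to 1733 and 1827 (-1.39 ± 0.04). The helicase gene Ddx18 fell from 2151 and 2154 to 811 and 897 (-1.34 ± 0.05).

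Ebna1bp2, an assembly factor of the early large subunit, fell from 3041 and 2951 to 1202 and 1189 normalised counts (-1.32 ± 0.04), and Nop16 fell from 1319 and 1229 to 542 and 485 (-1.31 ± 0.07). Rrp1b, a paralog of Rrp1, fell from 2868 and 2721 to 1297 and 1298 (-1.11 ± 0.04). Rrp1 had the smallest fall of the role, from 7013 and 6849 to 4222 and 4119.6 (-0.73 ± 0.03), and the 2 paralogs' 95% intervals, -1.20 to -1.02 and -0.80 to -0.67, did not overlap. The helicase gene Ddx56 lay just short of the study's fold threshold at -0.95 ± 0.04. Just inside it was Pes1 at -1.01 ± 0.04.

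Bop1, Pes1 and Wdr12 form the PeBoW complex. Bop1 fell from 5089.7 and 5089 to 2285 and 2218 normalised counts (-1.18 ± 0.03), Wdr12 fell from 2454 and 2475 to 1094 and 1114 (-1.16 ± 0.04) and Pes1 fell from 4013 and 3846 to 1932 and 1972 (-1.01 ± 0.04). This complex had the most even changes of the 5 compared, with 0.17 on the log2 scale between its largest and smallest fall. The Bop1 to Pes1 ratio was 1.27 and 1.32 in untreated cells and 1.18 and 1.13 in genistein cells.

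The Pol I machinery transcribes the ribosomal DNA. All 7 genes fell, with a median log2 fold change of -0.82 (adjusted p from 3.08e-14 to 2.08e-07, edgeR), and 2 passed the study's thresholds. Polr1b, a catalytic core subunit, fell from 2890.0 and 2807 to 994 and 1022 normalised counts (-1.50 ± 0.04). Polr1e, a subunit used in starting and elongating transcripts, fell from 877 and 826 to 446 and 358 (-1.08 ± 0.08), and its 2 genistein libraries were well apart. Without genistein 1 its log2 fold change was -1.24. The largest subunit, Polr1a, was more abundant in counts and fell less, from 6297 and 6364 to 3611 and 3724 (-0.79 ± 0.03). Polr1c, a subunit shared with RNA polymerase III, fell from 1637 and 1445 to 1057 and 1000.05 (-0.58 ± 0.06). The Polr1b to Polr1c ratio was 1.76 and 1.94 in untreated cells and 0.941 and 1.02 in genistein cells.

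Among the factors that recruit Pol I, Ubtf, which binds ribosomal DNA along its length, fell from 5529 and 5291 to 2902 and 2798 normalised counts (-0.92 ± 0.04). Taf1d, a subunit of the promoter selectivity factor, fell from 2161 and 2082 to 1234 and 1162 (-0.82 ± 0.05). Rrn3, which links Pol I to that factor, had the smallest fall of the role, from 3878 and 3772 to 2586 and 2661 (-0.54 ± 0.04, 68.6% of untreated). No genistein library of these 3 genes reached an untreated value. Roles were compared by description only, since genes are not replicates: 7 of 8 snoRNP genes (median -1.36), 9 of 17 small subunit genes, 11 of 13 large subunit genes and 2 of 7 Pol I genes passed the study's thresholds. These shares describe the listed genes only, and medians of wider lists are given below.

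**Figure D3:**
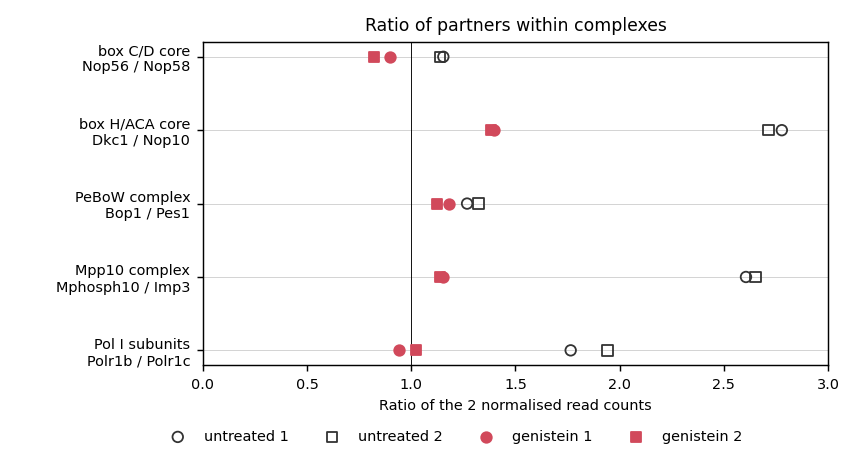
Ratio of the normalised read counts of the partner with the largest fall to the partner with the smallest fall in 5 complexes, in each of the 4 libraries (open, untreated; filled, genistein). In all 5 complexes both genistein ratios lie below both untreated ratios, a direction fixed by how the partners were picked, and the gap is widest for Mphosph10 to Imp3.

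Multifunctional nucleolar proteins act at several steps. Npm1, the histone and ribosome chaperone nucleophosmin, was the most abundant of the 49 genes and fell from 35538 and 34415 to 15999 and 16275 normalised counts (34976 ± 794 to 16137 ± 195, SD, n = 2, log2 fold change -1.12 ± 0.05). Ncl, which encodes nucleolin and binds precursor rRNA, fell from 33904 and 32409 to 14089 and 13124 (-1.28 ± 0.05). All libraries of one group were above all libraries of the other for both. The helicase gene Ddx21 fell from 16767 and 16263 to 5702 and 5768 (-1.53 ± 0.05), and Mybbp1a, a nucleolar protein that also binds transcription factors, fell from 15722 and 15190.1 to 5460.2 and 5344 (-1.52 ± 0.05). All 4 passed the study's thresholds (adjusted p from 5.41e-14 to 3.17e-12, edgeR), and these 4 genes held 0.377% and 0.367% of all gene counts in untreated libraries and 0.164% and 0.162% in genistein libraries.

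Levels between genes were compared as CPM (counts scaled to 1 fixed library total) per kilobase of merged exon. Npm1 was highest at 446 and 432 untreated and 201 and 204 with genistein. The most abundant genes of the other roles on this scale were Nhp2 (97.3 and 96 untreated and 34.2 and 36.5 with genistein), Nop56 (90.03 and 86.8 untreated and 29.3 and 28.3 with genistein), Rrp1 (70.2 and 68.6 untreated and 42.3 and 41.3 with genistein), Wdr43 (56.2 and 55.2 untreated and 19.9 and 20.4 with genistein) and Rrn3 (30.0 and 29.2 untreated and 20.02 and 20.6 with genistein). With the length of the longest coding transcript in place of merged exons, chosen after the data were seen, Taf1d ranked 1 and Rrn3 4 in the Pol I role, while the leading genes of the other 5 roles stayed first. Wdr12 was lowest at 6.86 and 6.92 untreated and 3.06 and 3.12 with genistein. Merged exons include retained introns, which lower the values of genes such as Taf1d and Gnl3. Across the 49 genes, which share the same 4 libraries, the log2 fold change and the log2 mean count had Pearson's r of -0.141 (Spearman -0.143).

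The other genes of the pathway were taken from a list of 138 genes outside the 49, of which 135 had an entry and were tested. Of these, 128 were lower, 2 were higher and 5 did not pass (36.0% and 36.2% of all genes and repeats were lower and higher), with a median log2 fold change of -0.80. The study's thresholds were passed downward by 40. Medians by list were -0.80 for other Pol I and shared subunits, -0.10 for other Pol I factors and -0.27 for ribosomal DNA silencing factors. They were -0.70 for snoRNP assembly factors, -0.83 for other small and for other large subunit factors, and -0.89 for exosome and RNase MRP genes. Unlike in the listed roles, other Pol I subunits and other subunit factors had similar medians, while other Pol I factors fell less. Among ribosomal protein genes, 76 of 77 cytosolic ones were lower (median -0.52), as were 72 of 78 mitochondrial ones, with 2 higher (median -0.64).

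**Figure D4:**
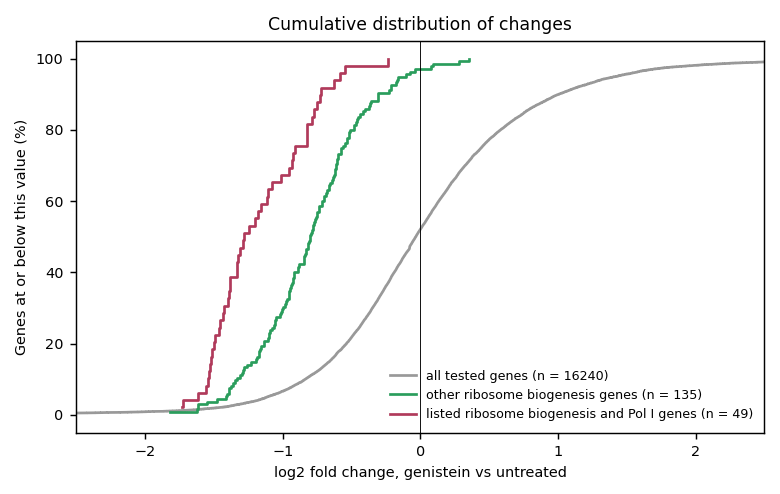
Cumulative share of genes (percent) at or below each log2 fold change for the 49 listed genes, the 135 other ribosome biogenesis genes tested and all 16240 tested genes. The curve of the 49 genes lies furthest left (median -1.28), that of the other pathway genes lies between (-0.80), and that of all genes crosses its middle at -0.03. Both lists were chosen with earlier results of these data known, which limits the contrast between them.

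All 9 other subunits of Pol I, some shared with the other polymerases, were lower. The 2 with the largest change were Cd3eap, from 1051 and 976 to 402 and 379.6 normalised counts (-1.37 ± 0.07), and the shared subunit gene Polr2h, from 782 and 745 to 331 and 306 (-1.26 ± 0.07). Of 5 other Pol I factors, 2 were lower, Taf1a, from 652 and 637 to 458 and 424 (-0.55 ± 0.07), and Taf1c, from 466 and 420.3 to 397 and 358 (-0.23 ± 0.08). The other 3 did not pass: Taf1b had 419, 395, 386 and 370.5 normalised counts (-0.10, 95% interval -0.27 to 0.06), the TATA-binding protein gene Tbp had -0.04 (-0.15 to 0.08) and the terminator factor gene Ttf1 0.08 (-0.04 to 0.20). The intervals of these 3 lie above the values of all 7 listed Pol I genes.

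Of 4 factors tied to the silencing or state of ribosomal DNA, 2 were lower and 2 were higher. Rrp8 went from 1551 and 1533 to 600.1 and 622 normalised counts (-1.34 ± 0.05) and the remodeller gene Smarca5 went from 12708 and 12319 to 6938 and 7267 (-0.82 ± 0.04). Baz2a, whose product joins Smarca5 in the nucleolar remodelling complex, rose from 1826 and 1984 to 2535 and 2322 (0.35 ± 0.05, adjusted p = 7.79e-06, edgeR). The deacetylase gene Sirt7 rose from 629 and 579 to 768 and 702 (0.28 ± 0.07, adjusted p = 0.00119, edgeR).

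All 9 snoRNP assembly factors tested were lower, led by the ATPase genes Ruvbl2, from 2830.0 and 2773 to 1119.6 and 1146 normalised counts (-1.31 ± 0.04), and Ruvbl1, from 1957 and 1926 to 834 and 899 (-1.17 ± 0.05). Of 41 other small subunit factors 40 were lower, led by Tbl3, from 2813 and 2902 to 1052 and 1099 (-1.41 ± 0.04), and Utp18, from 2514 and 2501 to 971 and 922 (-1.40 ± 0.04), and the exception was Rrp36 (0.09, 95% interval -0.03 to 0.21). Of 46 other large subunit factors 45 were lower, led by Ppan, from 2361 and 2375 to 791 and 742 (-1.63 ± 0.05), and Rpf2, from 2253 and 2114 to 676 and 753 (-1.61 ± 0.06). Gnl3l, a relative of Gnl3, was the exception at -0.08 (-0.15 to -0.00). All 21 exosome and RNase MRP genes, whose products trim and cut the precursor, were lower, led by Rpp25, from 323 and 245 to 76 and 85 (-1.82 ± 0.15), and Exosc3, from 763 and 779 to 309 and 377 (-1.17 ± 0.08). The named genes that did not pass the test and Baz2a and Sirt7 were chosen after their values were seen.

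The listed genes also host small RNAs of the same pathway. Within the bounds and on the strand of 8 of the 49 genes lay 29 snoRNA entries, in Nop56 (5), Nop58 (4), Dkc1 (1), Wdr43 (3), Tsr1 (2), Gnl3 (3), Taf1d (8) and Ncl (3). Of the 28 tested, 25 were lower, 0 were higher and 3 did not pass, with a median log2 fold change of -1.10. Of 269 other snoRNA genes tested, 126 were lower and 30 were higher (median -0.48). Of the 28, 18 overlap an annotated exon of the host, so an entry can also hold reads of the host transcript. Of these 18, 17 were lower, and of the 10 that lie within introns, 8 were lower. Total RNA also holds unspliced host transcript, so an entry within an intron can hold host reads too. The part of host reads in these results was not tested. DESeq2 called 16 of the 28 lower, and edgeR 18 to 23 when 1 library was left out.

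Sequences are shown for the 6 entries with a mean normalised count over 100, since they have the highest counts. All 6 overlap an annotated exon of their host. They were read from the GENCODE M21 transcripts (GRCm38), 5′ to 3′, with capitals for the C box (letters TGATGA or TGATG in the first 20 bases) and the D box (CTGA within the last 16), or for the letters ACA starting 5 or 6 bases before the end. By this search 15 of the 29 entries held both a C and a D box, 7 an ACA box and 7 none.
Gm23187, in Nop56, chr2:130277195-130277280, plus strand
Gm23187: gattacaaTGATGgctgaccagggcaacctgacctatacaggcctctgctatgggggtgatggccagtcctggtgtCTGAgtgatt
Gm24357, in Taf1d, chr9:15315522-15315595, plus strand
Gm24357: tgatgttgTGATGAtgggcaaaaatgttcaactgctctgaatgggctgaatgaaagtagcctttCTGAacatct
Gm24455, in Taf1d, chr9:15313802-15313932, plus strand
Gm24455: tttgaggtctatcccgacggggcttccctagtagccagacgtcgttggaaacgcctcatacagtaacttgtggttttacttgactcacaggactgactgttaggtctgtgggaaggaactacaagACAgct
Gm22579, in Taf1d, chr9:15316676-15316808, plus strand
Gm22579: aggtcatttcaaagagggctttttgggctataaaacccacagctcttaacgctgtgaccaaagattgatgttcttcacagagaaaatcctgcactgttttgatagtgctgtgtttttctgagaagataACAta
Gm23455, in Taf1d, chr9:15316489-15316588, plus strand
Gm23455: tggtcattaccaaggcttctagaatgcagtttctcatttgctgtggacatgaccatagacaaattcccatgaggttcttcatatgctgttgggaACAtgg
Gm25791, in Taf1d, chr9:15314845-15314981, plus strand
Gm25791: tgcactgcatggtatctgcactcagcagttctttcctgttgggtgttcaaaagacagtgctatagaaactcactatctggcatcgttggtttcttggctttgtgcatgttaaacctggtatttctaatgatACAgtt

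Gm23187, 1 of the 2 with a C and a D box, fell from 181 and 183 to 53.4 and 38.5 normalised counts (-1.97 ± 0.16), beside -1.62 for its host Nop56. In Taf1d, whose own change was -0.82, Gm24455 fell from 174 and 155 to 76 and 65.8 (-1.21 ± 0.14). Gm24357, the other with a C and a D box, fell from 534 and 600.3 to 291 and 322 (-0.89 ± 0.08). These 3 entries showed no overlap between groups. Gm22579 fell from 449 and 412 to 235 and 229.8 (-0.89 ± 0.09) and Gm23455 fell from 1113 and 1026 to 695 and 672 (-0.65 ± 0.06). Gm25791 did not pass, with 159.8 and 229 untreated and 199 and 201 genistein counts (0.05 ± 0.14, 95% interval -0.24 to 0.34). It lay in the same host as Gm22579 and Gm23455, and its untreated libraries enclosed both genistein libraries. Without untreated 2 it was called higher (0.32 ± 0.13, adjusted p = 0.0334, edgeR). The other 2 that did not pass were Gm22858 in Wdr43 (-0.08 ± 0.27) and Snord91a in Tsr1 (-0.65 ± 0.30).

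**Figure D5:**
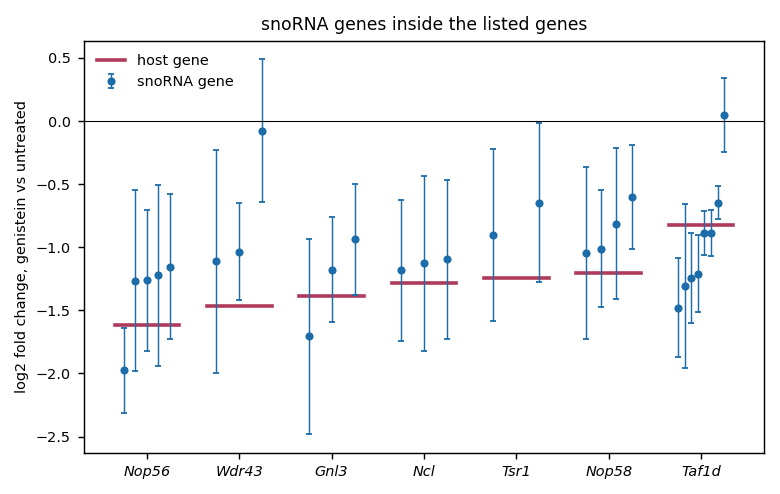
Log2 fold change of the 28 tested snoRNA genes (points, with 95% intervals from the edgeR fit) by the listed gene that holds them, with the host's own log2 fold change as a bar; the host Dkc1 is not shown because its 1 entry was not tested. All but 2 points lie at -0.60 or lower, and those 2 lie near 0, Gm22858 in Wdr43 and Gm25791 in Taf1d.

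Promoter windows of 250 bases before to 50 bases after the gene start were at hand for 44 of the 49 genes (RefSeq, GRCm38.p6). They were searched on both strands for CACGTG, the E-box core, CCGGAAG, an ETS core, ATGGCGG, a YY1 core, and GCATGCG, an NRF1 core. None of these 4 contains another, and a gene counted once if any of its windows (52 for the 44 genes) held the letters. CACGTG was in 9 of the 44 (20.5%), in 11.7% of 10022 tested genes with a window and in 8.09% of all 27025 genes of the table. CCGGAAG was in 14 (31.8%, against 20.5% and 9.93%), ATGGCGG in 7 (15.9%, against 9.51% and 4.69%) and GCATGCG in 3 (6.82%, against 7.34% and 4.01%). Among 372 other genes past the study's thresholds downward, the shares were 15.9% for CACGTG, 21.2% for CCGGAAG, 10.2% for ATGGCGG and 9.41% for GCATGCG. A match is a description of letters and not of binding. The median log2 fold change was -1.25 for the 9 genes with CACGTG and -1.28 for the 35 without it.

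The stretches around CACGTG (capitals) upstream of the gene start are shown because only Imp4, Nop2 and Rrn3 of the 9 had the motif there, and only Rrn3 had it more than once. Their log2 fold changes, -0.82, -1.40 and -0.54, span a wide part of the range of the 49 genes. In Rrn3 the first bases of the 2 motifs lie 215 and 48 bases before the gene start.
Imp4, chr1:34439698-34439723, plus strand, first base of the motif 121 bases before the gene start
Imp4: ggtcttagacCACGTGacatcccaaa
Nop2, chr6:125131813-125131838, plus strand, first base of the motif 60 bases before the gene start
Nop2: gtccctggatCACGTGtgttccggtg
Rrn3, chr16:13780469-13780671, plus strand, both motifs
Rrn3: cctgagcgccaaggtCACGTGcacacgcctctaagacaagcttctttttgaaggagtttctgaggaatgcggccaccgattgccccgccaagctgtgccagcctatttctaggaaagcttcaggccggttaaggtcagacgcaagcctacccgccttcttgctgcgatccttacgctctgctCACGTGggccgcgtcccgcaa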

How the data were processed

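Total RNA of 2 untreated and 2 genistein-treated MEF libraries had been made with a stranded, rRNA-depleting kit. Per the labels and the study's methods, the authors trimmed reads (Trim Galore 0.4.0), aligned them with STAR 2.5.2 to mm10 and summed them per gene and repeat family with TEtranscripts 1.5.1. What they deposited are raw counts, all whole numbers. The strand option is not given in the sources used here. The table had 47937 gene and 1445 repeat entries, and 1 entry without a name (0.00208% to 0.00314% of a library) was left out.

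The counts were fitted with edgeR 4.0.16 (R 4.3.3): filterByExpr by group, trimmed mean of M-values (TMM) scaling, and a quasi-likelihood test of genistein against untreated and p-values adjusted by Benjamini-Hochberg across the 17358 entries kept. The standard error is the size of the log2 fold change over the square root of F. The threshold was an adjusted p of 0.05. The study's own thresholds add a log2 fold change beyond 1 in either direction and a mean of normalised counts above 100. Counts vary beyond sampling, and PCR reads are not independent molecules.

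Alternatives were RLE factors, library totals alone, TMM from genes alone, no low-count filter, DESeq2 1.42.0, a replicate block, leaving out each library, other fold and count limits, and transcript length for levels. Gene positions, exon lengths and snoRNA sequences came from GENCODE M21 on GRCm38, the assembly of mm10, and promoters from RefSeq on GRCm38.p6. Sequence shared with other genes was found with blastn 2.17.0 (at least 95% identity over 150 bp), and only pseudogenes, processed or not, were summed with the gene. The members, their roles and the other gene lists were chosen with earlier results of these data known. Values in every library were given for listed genes past the study's thresholds, the largest and smallest change and the most abundant gene of each role, for the 2 largest called changes of each other pathway list (mean count over 100), and for up to 6 snoRNA entries with a mean count over 100. Protein sequences were not used here.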

Additional observations from a re-analysis of the deposited data

How the results depend on the processing

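All 49 genes stayed lower at an adjusted p under 0.05 in each of 10 alternatives (490 values), with a largest shift of 0.166 on the log2 scale (Polr1e without genistein 1) and a largest adjusted p of 0.0273 (Imp3, DESeq2). The count past the study's thresholds was 32 to 33 in these fits, 29 with a mean count limit of 1000, and 31 when the fold itself was tested with glmTreat. With library totals alone, the median was -1.21 over the 49 genes, -1.26 for box C/D, -1.31 for box H/ACA, -1.18 for small subunit, -1.24 for large subunit, -0.75 for Pol I and -1.33 for multifunctional genes, while 4 other pathway genes were higher and that list's median was -0.73. With TMM from genes alone, the medians were -1.24 over the 49, -1.29 for box C/D, -1.34 for box H/ACA, -1.20 for small subunit, -0.78 for Pol I and -0.76 for the other pathway genes. Without the low-count filter they were -1.27 for small subunit and -0.83 for other pathway genes. DESeq2 called 16 of the 28 snoRNA entries lower against 25, and none had an NA p-value. Leaving out 1 library at a time gave medians of -1.30 to -1.23 over the 49, -1.42 to -1.36 for box H/ACA, -1.34 to -1.23 for large subunit, -0.86 to -0.80 for Pol I and -0.82 to -0.78 for other pathway genes, with 18 to 23 snoRNA entries lower and 0 to 1 higher (Gm25791, without untreated 2). The lone library of a group is then assumed to vary like the other group. Same-numbered libraries share only a number (deviations correlated at -0.0265 over all kept entries and 0.265 over the 49 genes), and with a replicate block 49 genes were lower, 33 past the study's thresholds, and the median was -1.28. With 2 libraries per group, the low counts of most snoRNA entries limit what could be told.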

Other observations

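The repeat entries LSU-rRNA_Hsa, SSU-rRNA_Hsa, 5S and U3 sum reads on copies annotated as repeats of these RNA families. The libraries had most ribosomal RNA removed, so these values hold what the depletion left and do not measure the level of ribosomal RNA itself. They were picked after their values were seen. The large subunit rRNA entry had 516154 and 467036 normalised counts in untreated cells and 1019250.0 and 742991 in genistein cells, a log2 fold change of 0.84 ± 0.09 (SE, adjusted p = 3.02e-07, edgeR). The small subunit rRNA entry went from 32948 and 18364 to 49017 and 35754 (0.72 ± 0.18, adjusted p = 0.00167, edgeR), and its libraries differed widely within each group. Both were higher in both genistein libraries, while all 49 listed genes were lower. The 5S rRNA entry was higher too, from 98.9 and 115 to 156 and 153 (0.53 ± 0.13, adjusted p = 0.00191, edgeR). The U3 repeat entry is named after the RNA partner of Rrp9 and the Mpp10 complex. It had 11821 and 24406 normalised counts against 21242 and 19387 (0.17 ± 0.19, adjusted p = 0.452, edgeR), with overlapping groups.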
